A study of Mus musculus with 10 samples.

Results

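The 41 genes described here are nuclear genes for subunits of respiratory complexes II, III, IV and V, though not for every subunit, and for cytochrome c. They were chosen by name from the 49315 rows of a gene count table of mouse gastrocnemius, and the rule that names them uses no measured value. Complex II is represented by 4 genes (the Sdh genes), complex III by 9 (the Uqcr genes and Cyc1), complex IV by 13 (the Cox genes) and complex V by 14 (the Atp5 genes), and Cycs, which encodes cytochrome c, stands on its own.

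Complex II passes electrons from succinate to ubiquinone, complex III passes them on to cytochrome c, and complex IV hands them to oxygen. Complexes III and IV pump protons as they do so, and complex V, the ATP synthase, uses the proton gradient to make ATP. Complexes III to V are built from nuclear-encoded and mitochondrially encoded subunits, whereas all subunits of complex II are nuclear. In skeletal muscle, fibres that rely on oxidative metabolism hold more of these complexes than glycolytic fibres, and several complex IV subunits exist in a form typical of heart and skeletal muscle and a form found in most tissues.

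The tissue came from 10 male mice with the strain background C57BL6J per the labels, 5 AHRfl and 5 AHRmko, and polyadenylated RNA was sequenced from each mouse as 1 library. Every mouse of both groups had inhaled cigarette smoke for 16 weeks (1 h at a time, 2 exposures a day, 5 days per week, at an average of 220 ± 80 mg/m3), and muscle was taken 72 h after the last exposure per the labels (the study's text also gives a range that begins earlier), so the comparison is of genotypes under smoke and no air-breathing mouse enters it. AHRmko mice carry floxed alleles of the aryl hydrocarbon receptor gene Ahr and the HSA-MCM transgene, a tamoxifen-activated MerCreMer recombinase driven by the human ACTA1 promoter, and AHRfl mice are littermates with the floxed alleles and no Cre. The promoter acts in skeletal muscle fibres, so other cells of an AHRmko muscle keep Ahr. Tamoxifen was injected to induce the knockout, and smoke began 4 weeks after the last injection per the labels and somewhat earlier per the study's main text. The study times the smoke of both genotypes from tamoxifen, and the sources used here do not state outright that the AHRfl mice were injected. They call the mice aged and give no age in weeks or months.

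Between 30393035 and 37954388 reads were assigned to genes in each library. Ahr itself was at 3.13, 2.05, 1.64, 1.95 and 1.33 CPM (counts relative to a library size that edgeR's TMM scaling had adjusted) in AHRfl mice 11, 12, 13, 15 and 33 and at 1.65, 2.17, 1.54, 1.63 and 0.927 CPM in AHRmko mice 8, 9, 19, 22 and 34. The genotypes overlapped (log2 fold change -0.35 ± 0.26 SE for Ahr, adjusted p = 0.844, edgeR), and a count over the whole gene cannot show whether the floxed exon is present. The 5 genes that define skeletal muscle summed to 57864 to 71679 CPM in every library, while markers of endothelial cells, adipocytes, macrophages, fibroblasts, red cells and Schwann cells, 5 genes for each type, summed to at most 571 CPM. Log2 fold changes were above 0 in all 5 endothelial genes (median 0.14), all 5 red cell genes (0.51), all 4 adipocyte genes tested (0.39) and 4 of 5 macrophage genes (0.11), and below 0 in all 5 fibroblast genes (-0.17) and all 5 Schwann cell genes (-0.21). None of these genes passed an unadjusted or adjusted p of 0.05 in edgeR, and the summed levels overlapped between genotypes for every type, from 291 to 549.5 CPM in AHRfl and 286 to 571 CPM in AHRmko for fibroblast genes and from 105 to 321 CPM and 143 to 482 CPM for red cell genes. Myh7, the slow myosin heavy chain, ranged from 3.32 CPM in AHRfl mouse 12 to 631 CPM in AHRmko mouse 8, and Myh2, the myosin of fast oxidative fibres, from 297 CPM in AHRfl mouse 12 to 4218 CPM in AHRfl mouse 15. Xist, which is normally expressed in females, was counted 44 to 75 times in 5 libraries (AHRfl 11, 15 and 33, AHRmko 9 and 22) and 0 to 3 times in the other 5, although transcripts of the Y chromosome were present in all 10. The part of these cell types, of fibre composition and of these Xist counts in the results below was not tested beyond the values given beside them. In whole muscle, fewer fibres of a type and less of a transcript in each fibre cannot be told apart.

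Start-site sequences of 6 of the genes are shown first: those of a complex II and a complex IV gene described below, and those of paired complex IV genes whose levels differ widely. Each sequence runs 5′ to 3′ on the gene's own strand, from 250 bases before to 30 bases after the annotated start, and was taken from RefSeq (GRCm38.p6), in which 32 of the 41 genes had an entry. Capitals mark a match to 1 of 6 short motifs. Sdhd (chr9:50603820-50604099, minus strand) encodes a membrane anchor of complex II and carries a match to the NRF1 motif (GCGC, any base, TGCGC) on the reverse strand. Cox5a (chr9:57520982-57521261, plus strand) is the complex IV subunit with the smallest p between genotypes and has no match.
Sdhd: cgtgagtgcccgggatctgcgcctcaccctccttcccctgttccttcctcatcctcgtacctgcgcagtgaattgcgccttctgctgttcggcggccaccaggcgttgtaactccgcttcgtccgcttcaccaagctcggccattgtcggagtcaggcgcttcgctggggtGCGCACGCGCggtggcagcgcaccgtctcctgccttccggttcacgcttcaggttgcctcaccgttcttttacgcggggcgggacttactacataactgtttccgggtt
Cox5a: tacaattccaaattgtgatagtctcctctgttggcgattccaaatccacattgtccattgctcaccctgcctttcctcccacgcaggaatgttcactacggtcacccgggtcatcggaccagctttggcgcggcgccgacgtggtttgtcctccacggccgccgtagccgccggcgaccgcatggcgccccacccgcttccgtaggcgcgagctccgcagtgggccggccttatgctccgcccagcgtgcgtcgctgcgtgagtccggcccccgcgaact

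The next sequences belong to both forms of subunit VIIa and both forms of subunit VIII of complex IV. Cox7a1 (chr7:30183921-30184200, plus strand) and Cox8b (chr7:140900417-140900696, minus strand) are the muscle forms, and Cox7a2 (chr9:79759824-79760103, minus strand) and Cox8a (chr19:7217587-7217866, minus strand) the forms found in most tissues. Capitals mark TATAAA in Cox8b, at position 5 counted from the annotated start, and the GABPA motif CCGGAAGT on the reverse strand of Cox8a.
Cox7a1: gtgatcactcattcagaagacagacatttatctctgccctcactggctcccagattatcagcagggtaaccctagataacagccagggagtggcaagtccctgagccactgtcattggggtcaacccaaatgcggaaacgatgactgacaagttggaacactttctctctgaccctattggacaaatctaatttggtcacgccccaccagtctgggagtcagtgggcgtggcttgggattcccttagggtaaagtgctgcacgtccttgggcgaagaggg
Cox7a2: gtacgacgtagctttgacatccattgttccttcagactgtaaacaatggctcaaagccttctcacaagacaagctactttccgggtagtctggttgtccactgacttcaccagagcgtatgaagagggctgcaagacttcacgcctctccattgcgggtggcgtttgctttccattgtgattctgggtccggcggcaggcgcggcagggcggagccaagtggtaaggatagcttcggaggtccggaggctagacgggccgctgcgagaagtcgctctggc
Cox8b: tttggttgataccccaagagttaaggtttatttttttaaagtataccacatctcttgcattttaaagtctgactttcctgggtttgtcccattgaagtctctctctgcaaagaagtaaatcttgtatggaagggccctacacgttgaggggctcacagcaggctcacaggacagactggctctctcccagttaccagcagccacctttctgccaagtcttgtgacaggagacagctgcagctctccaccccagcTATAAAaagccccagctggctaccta
Cox8a: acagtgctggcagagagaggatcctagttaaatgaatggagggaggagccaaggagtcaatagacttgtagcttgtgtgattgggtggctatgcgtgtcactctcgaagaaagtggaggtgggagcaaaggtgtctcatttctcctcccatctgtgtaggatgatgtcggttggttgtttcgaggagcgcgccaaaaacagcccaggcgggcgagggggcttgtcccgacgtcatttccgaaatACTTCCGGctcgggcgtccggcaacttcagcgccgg

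The muscle forms Cox7a1 and Cox8b lay in CpG-poor windows, while Cox6a2, the muscle form of subunit VIa, had no entry. The observed over expected ratio of CpG was 0.0644 for Cox8b and 0.315 for Cox7a1, the lowest of the 32 genes, against 0.814 for Cox7a2 and 0.835 for Cox8a. Cox7b came next at 0.378. The median was 0.833 over the 32 genes and 0.743 over the 10676 genes with an entry that were expressed enough to be tested. NRF1, a factor known to drive many respiratory genes, had its motif in 10 of the 32 windows (31.25%), in Sdha, Sdhd, Uqcrc1, Cox6a1, Atp5c1, Atp5g2, Atp5g3, Atp5h, Atp5k and Atp5o, and in 10.5% of the tested genes. GABPA had its motif in 4 windows (12.5%, against 8.30% of tested genes), the ERR motif AAGGTCA was in 3 (9.375%, against 3.81%) and the YY1 motif AAGATGGCG in 1 (3.125%, against 2.47%). The AHR motif TNGCGTG was found in Sdha and Sdhb, or 6.25% of the windows, against 8.45% of tested genes, and TATAAA in Atp5l and Cox8b, 6.25% against 8.99%. Both strands were searched and the motifs were counted independently of one another. A match is a description of these letters and not a binding site, and no match says only that the letters are not in this window.

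All 41 genes were well above the count filter. Levels between genes were compared as TPM, that is, counts divided by the length of the principal transcript (the longest where several are annotated) and scaled to the same sum in each mouse. Atp5b, the catalytic beta subunit of complex V, stood highest with a mean of 2630.5 TPM over the 10 mice, followed by Cox6a2 at 2178, Cox4i1 at 1938, Cox8b at 1896 and Atp5a1, the alpha subunit, at 1610.0 TPM. At the other end were Cox6a1 at 82.9, Cox8a at 90.2 and Sdhc at 173 TPM. Complex II genes covered 173 to 659 TPM, complex III genes 377 to 1024 TPM, complex IV genes 82.9 to 2178 TPM and complex V genes 245 to 2630.5 TPM. The lower ends of complexes III and V, and the order of the genes, turn on the transcript chosen. With the shortest principal transcript instead, a setting added after seeing the data, Atp5g1 moved from 245 to 1934 TPM and to rank 4 of the 41, and Uqcrq from 377 to 1417 TPM and to rank 7, while Atp5b and Cox6a2 stayed the highest. As a whole the 41 genes took 1.61% of the assigned reads in AHRmko mouse 34 and 2.21% in AHRfl mouse 33, the lowest and the highest of the 10 mice.

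The comparison of genotypes asked whether loss of the receptor in fibres goes with a difference in these transcripts after smoke. The log2 fold change of AHRmko over AHRfl was below 0 in 37 of the 41 genes, against 48.5% of the 14714 genes tested, and above 0 in Sdha, Uqcrc2, Cycs and Atp5b. The differences were small: the median was -0.09 on the log2 scale, against 0.01 over all genes tested, and single genes ran from -0.23 for Cox5a to 0.05 for Sdha. No gene of the 41 passed an adjusted p of 0.05 in edgeR's quasi-likelihood test, in which 0.0068% of all genes did, or in DESeq2, in which 0.193% did. At an unadjusted p under 0.05, 4 of the 41 were lower in AHRmko in edgeR (Cox5a, Atp5l, Uqcrfs1 and Uqcrq) and 4 in DESeq2, and none was higher in edgeR. In edgeR 3.38% of all genes were lower and 3.23% higher at that limit, and in DESeq2 3.34% were lower. In none of the 41 did the 5 mice of one genotype lie wholly below or above the 5 of the other, as 0.714% of all genes did with AHRmko lower and 0.686% with AHRmko higher. The 41 genes vary together across mice, as shown further on, so the 41 directions are not independent of one another.

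**Figure D1:**
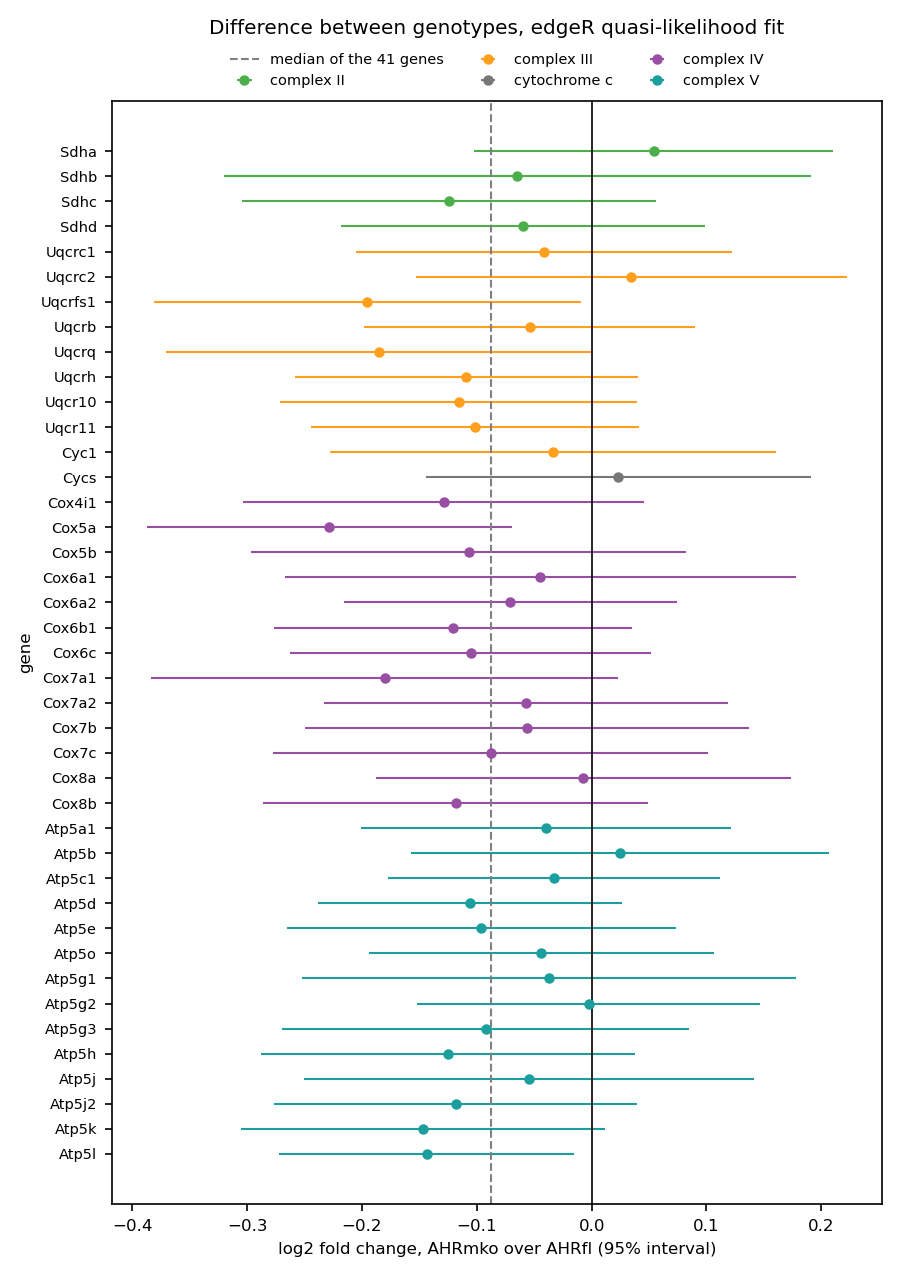
Log2 fold change of AHRmko over AHRfl on the x axis for each of the 41 genes, with 95% confidence intervals from the edgeR fit and colours for the complexes. The dashed line is their median of -0.09. Of the 41 points 37 lie left of 0, and the intervals of Cox5a, Uqcrfs1, Uqcrq and Atp5l stay below 0.

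In complex II, 3 of 4 genes had a log2 fold change below 0 (median -0.06) and none passed p under 0.05. Sdhb, the iron-sulphur subunit, was at 408, 332, 413, 486 and 499 CPM in AHRfl mice 11, 12, 13, 15 and 33 and at 440.1, 384, 433, 461 and 327 CPM in AHRmko mice 8, 9, 19, 22 and 34. The lowest mouse of each genotype, AHRfl 12 and AHRmko 34, had almost the same value, and the groups overlapped (Sdhb log2 fold change -0.06 ± 0.12 SE, 95% interval -0.32 to 0.19, edgeR adjusted p = 0.954). Sdhb also had the widest spread of the 41 genes, 1.53-fold from the lowest to the highest mouse. Sdha, the flavoprotein that holds the active site, was at 0.05 on the log2 scale, and the membrane anchors Sdhc and Sdhd at -0.12 and -0.06.

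In complex III, 8 of 9 genes were below 0 (median -0.10). Uqcrfs1 encodes the Rieske iron-sulphur protein, which takes electrons from ubiquinol, and lies at chr13:30540308-30545362, minus strand (GRCm38). It was at 399, 385, 401, 422 and 424 CPM in AHRfl mice 11, 12, 13, 15 and 33 and at 298, 382, 408, 369 and 317 CPM in AHRmko mice 8, 9, 19, 22 and 34. The AHRfl mice were close together, while AHRmko 8, 9, 22 and 34 lay below all of them and AHRmko 19 among them. The mean was 406 ± 16.5 CPM in AHRfl and 355 ± 46.1 CPM in AHRmko (SD, n = 5 each), a log2 fold change of -0.20 ± 0.09 SE (edgeR p = 0.041, adjusted p = 0.734, two-sided exact permutation p = 0.0476 for Uqcrfs1).

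Uqcrq, a small accessory subunit (chr11:53427922-53430831, minus strand), was at 327, 299, 321, 374 and 379 CPM in the 5 AHRfl mice and 298, 281, 313, 336 and 266 CPM in the 5 AHRmko mice, in the same order of mice. AHRfl 15 and 33 stood above all other mice, and the remaining AHRfl mice lay within the range of AHRmko. The log2 fold change of Uqcrq was -0.19 ± 0.09 SE (edgeR p = 0.0494, adjusted p = 0.755, exact permutation p = 0.0794). Uqcrc2, a core subunit, was at 419.6, 346, 422, 467 and 424 CPM in AHRfl and 441, 432, 449, 444 and 363 CPM in AHRmko, again overlapping (log2 fold change 0.03 ± 0.09 SE, 95% interval -0.15 to 0.22, edgeR adjusted p = 0.967). The remaining genes were the core subunit Uqcrc1 (-0.04 on the log2 scale), Cyc1, which encodes cytochrome c1 (-0.03), and the small subunits Uqcrb (-0.05), Uqcrh (-0.11), Uqcr10 (-0.12) and Uqcr11 (-0.10). Cycs, the mobile carrier between complexes III and IV, was at 0.02.

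In complex IV all 13 genes were below 0 (median -0.11), from -0.01 for Cox8a to -0.23 for Cox5a. Cox5a, a subunit on the matrix side of the complex (chr9:57521274-57532426, plus strand), was at 361, 308, 354, 364 and 363 CPM in AHRfl mice 11, 12, 13, 15 and 33 and at 288, 300.1, 304, 333 and 268 CPM in AHRmko mice 8, 9, 19, 22 and 34. Of the AHRfl mice 4 lay above every AHRmko mouse and AHRfl 12 lay within the AHRmko range. The mean was 350.1 ± 23.7 CPM in AHRfl and 299 ± 23.6 CPM in AHRmko (SD, n = 5 each), a log2 fold change of -0.23 ± 0.07 SE with a 95% interval of -0.39 to -0.07. Its edgeR p of 0.00822 was the smallest of the 41 and ranked 192 among all genes tested. The exact permutation p of Cox5a was 0.0159, the same as for Atp5l. Its adjusted p was 0.627 in edgeR and 0.241 in DESeq2. With 5 mice against 5, the smallest two-sided exact p is 0.00794.

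The large subunit Cox4i1 was at -0.13 on the log2 scale, Cox5b at -0.11, Cox6b1 at -0.12, Cox6c at -0.11, Cox7b at -0.06 and Cox7c at -0.09. None of these 6 passed an unadjusted p of 0.05, and their 95% intervals all included 0.

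In complex V, 13 of 14 genes were below 0 (median -0.07). Atp5l encodes subunit g, one of the small membrane subunits at which ATP synthases meet as dimers (chr9:44912557-44920742, minus strand). It was at 345, 353, 339, 362 and 347 CPM in AHRfl mice 11, 12, 13, 15 and 33 and at 299.7, 313, 345, 318 and 307 CPM in AHRmko mice 8, 9, 19, 22 and 34. Of the AHRmko mice 4 lay below every AHRfl mouse and AHRmko 19 lay among them (log2 fold change -0.14 ± 0.06 SE, edgeR p = 0.0308, adjusted p = 0.707, exact permutation p = 0.0159 for Atp5l). Of the 150-base windows of the Atp5l transcript, 44.6% recur in the transcript of another annotated gene or pseudogene, so counts of uniquely assigned reads are uncertain for it. The same share was 24.6% for Cox7c, 21.8% for Cycs and 16.9% for Atp5h.

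**Figure D2:**
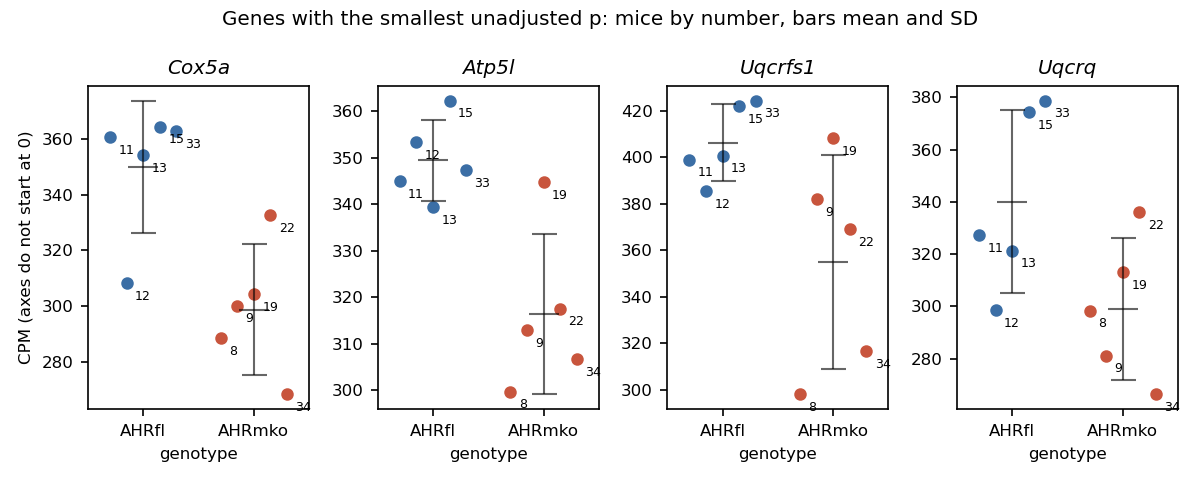
CPM of the 4 genes with the smallest unadjusted edgeR p, with 1 point per mouse labelled by its number and the mean and SD of each genotype as bars. The y axes do not start at 0, and in each gene at least 1 mouse of one genotype lies within the range of the other.

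Atp5a1, the alpha subunit, was at 2226, 2031, 2302, 2359.6 and 2304 CPM in AHRfl and 2276, 2228, 2245, 2250.0 and 1919.8 CPM in AHRmko, listed in the same order. AHRmko 34 and AHRfl 12 were the lowest and the other 8 mice lay between 2226 and 2360 CPM (log2 fold change -0.04 ± 0.07 SE, 95% interval -0.20 to 0.12, edgeR adjusted p = 0.954 for Atp5a1). In the catalytic head, Atp5b was at 0.02 on the log2 scale, the central stalk genes Atp5c1, Atp5d and Atp5e at -0.03, -0.11 and -0.10, and in the peripheral stalk Atp5o, Atp5h and Atp5j at -0.04, -0.13 and -0.05. Atp5d had an exact permutation p of 0.0397 but an edgeR p of 0.108. Among the small membrane subunits Atp5k was at -0.15 and Atp5j2 at -0.12.

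Several subunits have paired forms, and their balance was compared as the log2 ratio of TPM within each mouse. Transcripts of the muscle forms of complex IV subunits were above those of their partners in every mouse. Cox6a2 exceeded Cox6a1 26.4-fold on average (23.4 to 31.1-fold over the 10 mice), Cox8b exceeded Cox8a 21.0-fold (18.2 to 24.0-fold), and Cox7a1 exceeded Cox7a2 2.82-fold (2.48 to 3.10-fold). In TPM, Cox7a1 was at 1126, 894, 982, 1149.9 and 1260.2 in AHRfl mice 11, 12, 13, 15 and 33 and at 1000.3, 934, 1059, 1053 and 792 in AHRmko mice 8, 9, 19, 22 and 34. Cox7a2 was at 364, 321, 359, 379 and 407 TPM in AHRfl and 361, 338, 411, 353 and 319 TPM in AHRmko. Cox7a1 was thus lowest in AHRmko 34 and highest in AHRfl 33, whereas Cox7a2 was highest in AHRmko 19, and in both the genotypes overlapped.

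In the other pairs the muscle form was also the higher one, by a wider margin. Cox6a2 was at 2169, 1926, 2162, 2429 and 2391 TPM in AHRfl and 2203, 2156, 2166, 2140.4 and 2041 TPM in AHRmko, and Cox6a1 at 88.6, 68.4, 69.5, 94.1 and 97.5 and 88.1, 80.1, 85.6, 91.5 and 65.6 TPM. Cox8b was at 1863, 1902, 1816, 2005 and 2222 TPM in AHRfl and 1757, 1720.3, 1991, 1903 and 1784 TPM in AHRmko, and Cox8a at 94.8, 79.0, 81.0, 97.0 and 97.5 and 92.7, 81.8, 93.6, 104 and 80.8 TPM. No mouse of either genotype approached an equal share of both forms. The log2 ratio differed between genotypes (AHRmko minus AHRfl) by -0.03 for Cox6a2 over Cox6a1 (exact permutation p = 0.794), by -0.12 for Cox7a1 over Cox7a2 (p = 0.0714) and by -0.11 for Cox8b over Cox8a (p = 0.167).

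**Figure D3:**
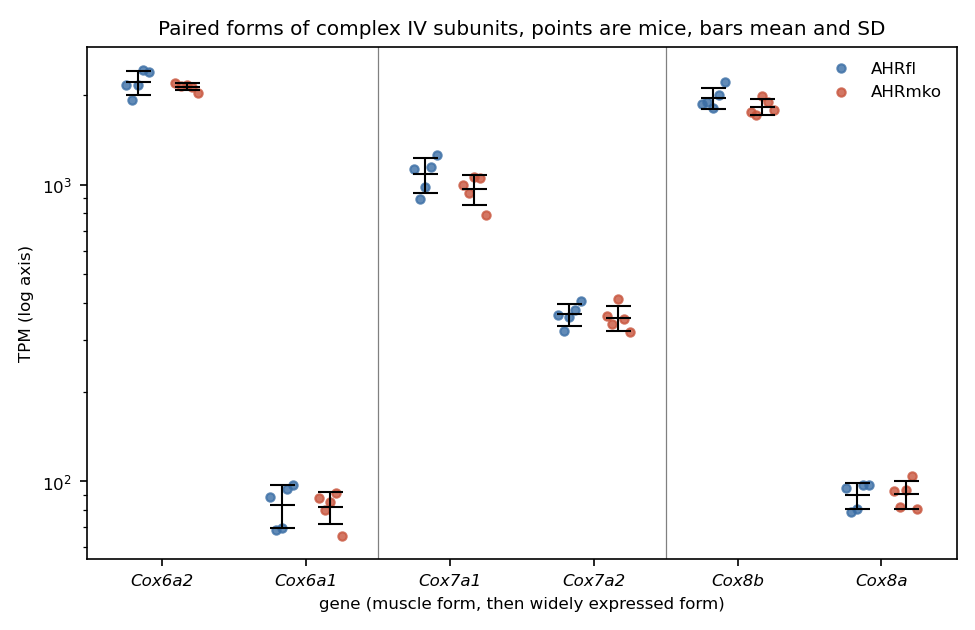
TPM on a log axis of the muscle form and the widely expressed form of complex IV subunits VIa, VIIa and VIII, with 1 point per mouse and mean and SD as bars for each genotype. The muscle form is above its partner in every mouse, by 26.4-fold, 2.82-fold and 21.0-fold on average, and the genotypes overlap in all 6 genes.

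The c-ring of complex V is made from the same mature protein encoded by Atp5g1, Atp5g2 and Atp5g3. In CPM, Atp5g1 was at 655, 556, 639.8, 700.5 and 698 in AHRfl and 673, 586, 753, 635 and 520.3 in AHRmko, Atp5g2 at 171, 182, 174, 184 and 159 and 174, 157, 194, 178 and 166, and Atp5g3 at 463, 408, 455, 497 and 505 and 465, 426, 481, 436 and 376. The genotypes overlapped in each. The log2 ratios differed between genotypes by -0.04 for Atp5g1 over Atp5g2 (exact permutation p = 0.762), by 0.05 for Atp5g1 over Atp5g3 (p = 0.175) and by -0.09 for Atp5g3 over Atp5g2 (p = 0.389), and over the 6 ratios compared the lowest Benjamini-Hochberg adjusted p was 0.349. Which of the 3 genes is highest per length cannot be told, since the principal transcript of Atp5g1 is annotated at 596 to 4715 bases and the ratio of Atp5g1 to Atp5g3 is 0.218 or 1.70 by that choice. Counts of Atp5g2 are uncertain as well, with 85.2% of its windows shared with other annotated loci.

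The 41 genes varied together from mouse to mouse. For each gene the deviation from its mean over the 10 mice was taken on the log2 CPM scale and averaged over the 41 genes. The averages were 0.03, -0.08, 0.01, 0.13 and 0.12 in AHRfl mice 11, 12, 13, 15 and 33 and -0.06, -0.09, 0.11, 0.03 and -0.19 in AHRmko mice 8, 9, 19, 22 and 34. The genotype means thus differed by -0.08, with SDs of 0.09 in AHRfl and 0.11 in AHRmko, and the groups overlapped widely. AHRmko mouse 34 was below the median of the mice in 41 of 41 genes and the lowest of all mice in 24. AHRmko mouse 9 was below the median in 39 genes and the lowest in 3, AHRfl mouse 12 below it in 32 and the lowest in 6, and AHRmko mouse 8 below it in 29 and the lowest in 8. The highest mouse was AHRfl 15 in 17 genes, AHRfl 33 in 13 and AHRmko 19 in 9.

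**Figure D4:**
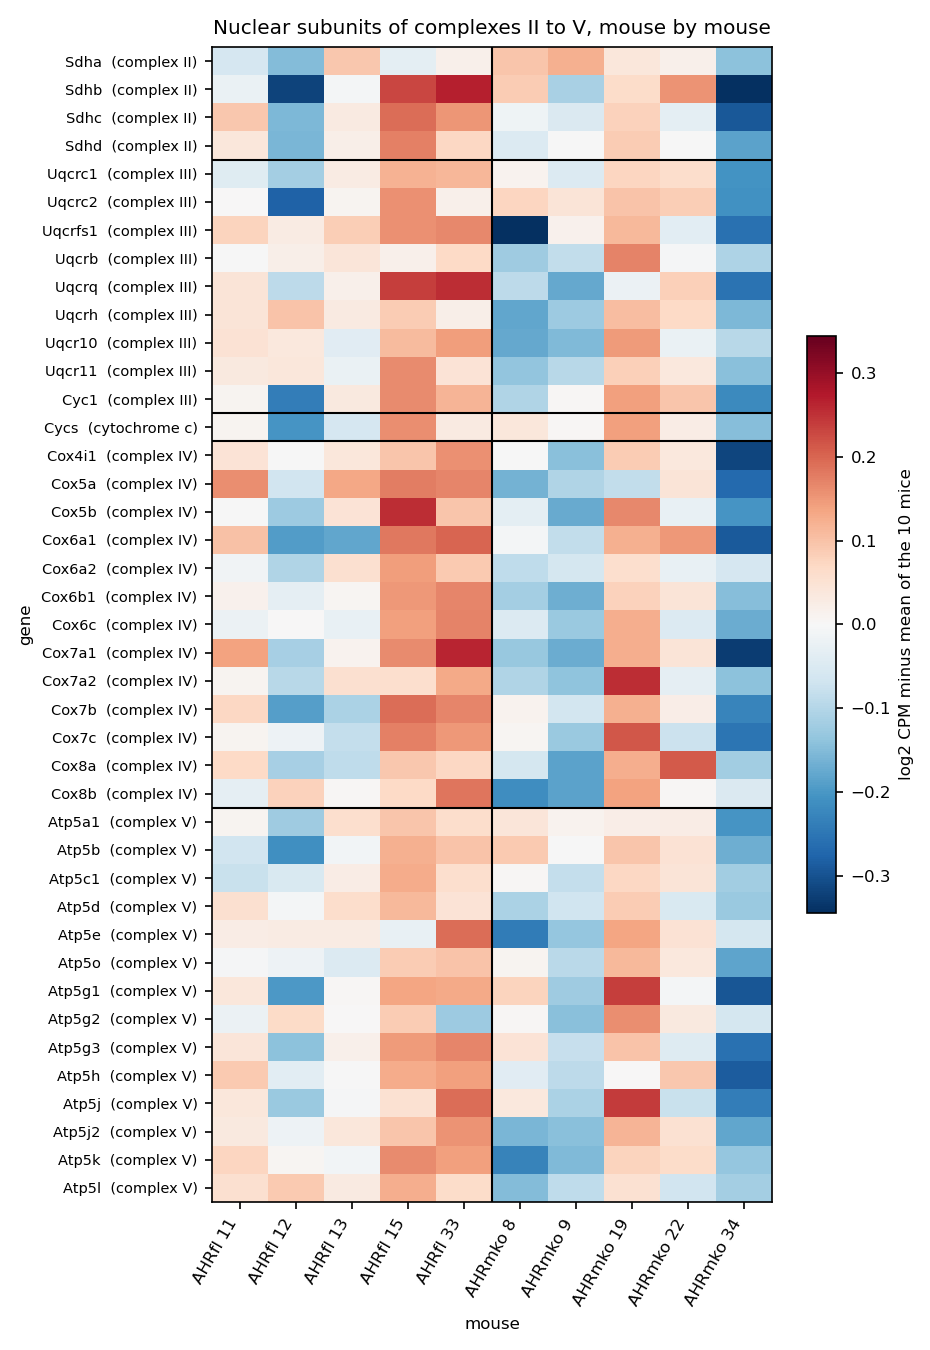
Deviation of each of the 41 genes (rows, grouped by complex) from its mean over the 10 mice (columns), in log2 CPM, with blue below and red above the mean. AHRmko 34 is blue throughout, and the AHRfl 15, AHRfl 33 and AHRmko 19 columns are mostly red.

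By complex, the averages for complex II were 0.01, -0.19, 0.03, 0.14 and 0.13 in AHRfl and 0.03, -0.01, 0.07, 0.03 and -0.24 in AHRmko, in the same order of mice. For complex III they were 0.02, -0.06, 0.02, 0.13 and 0.11 in AHRfl and -0.12, -0.07, 0.10, 0.04 and -0.18 in AHRmko. For complex IV the averages were 0.04, -0.07, -0.01, 0.14 and 0.15 in AHRfl and -0.07, -0.13, 0.12, 0.03 and -0.20 in AHRmko, and for complex V 0.02, -0.05, 0.01, 0.10 and 0.10 and -0.04, -0.09, 0.11, 0.01 and -0.17. AHRmko 34 was the lowest mouse in all 4 complexes. Complex II was the lowest of the 4 complexes in AHRfl 11 and 12 and AHRmko 19 and 34, and the highest in AHRfl 13 and AHRmko 8 and 9.

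The slow fibre genes and Myh2 varied far more than these subunits and in part along with them. The 8 slow fibre genes (Myh7, Tnni1, Tnnt1, Tnnc1, Myl2, Myl3, Tpm3 and Atp2a2) summed to 94.8 to 2019 CPM over the AHRfl mice and 252 to 2395 CPM over the AHRmko mice, and all 8 had log2 fold changes above 0 (median 0.42), none past p under 0.05. Their mean deviations were -1.22, -3.17, -1.62, 2.20 and 1.52 in AHRfl and 2.38, -1.75, 0.39, 1.95 and -0.67 in AHRmko. AHRfl 15 and 33 were high in slow fibre genes, in Myh2 and in the 41 subunits, and AHRfl 12 was low in all of them. Myh4, the myosin of fast glycolytic fibres, spanned only 1.61-fold, from 41411 CPM in AHRfl 33 to 66541 CPM in AHRfl 12. Its deviations were -0.02, 0.32, 0.09, -0.25 and -0.37 in AHRfl and -0.09, 0.11, 0.004, -0.07 and 0.26 in AHRmko. Myh4 was thus highest in AHRfl 12 and AHRmko 34 and lowest in AHRfl 33 and 15. AHRmko 8 was the highest mouse in slow fibre genes and below the mean in the subunits, and AHRmko 34, the lowest in the subunits, was at 48.1 CPM of Myh7, above AHRfl 11, 12 and 13 and AHRmko 9. In Myh2 (1173 CPM) and in Mb, the oxygen-binding myoglobin (1346 CPM), AHRmko 34 was the lowest mouse apart from AHRfl 12, which was at 297 CPM of Myh2 and 1024 CPM of Mb. With the mean of the slow fibre genes entered in the edgeR fit as a covariate, 40 of the 41 log2 fold changes were below 0, 10 were lower at an unadjusted p under 0.05 and none at an adjusted p under 0.05 (lowest 0.365). Of all genes tested in that fit, 49% were below 0 and 3.59% were lower at an unadjusted p under 0.05. With the Myh2 level as a covariate, chosen after seeing the data, the corresponding counts were 36, 8 and 0, against 48.4% of all genes below 0 and 4.18% lower at the unadjusted limit.

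**Figure D5:**
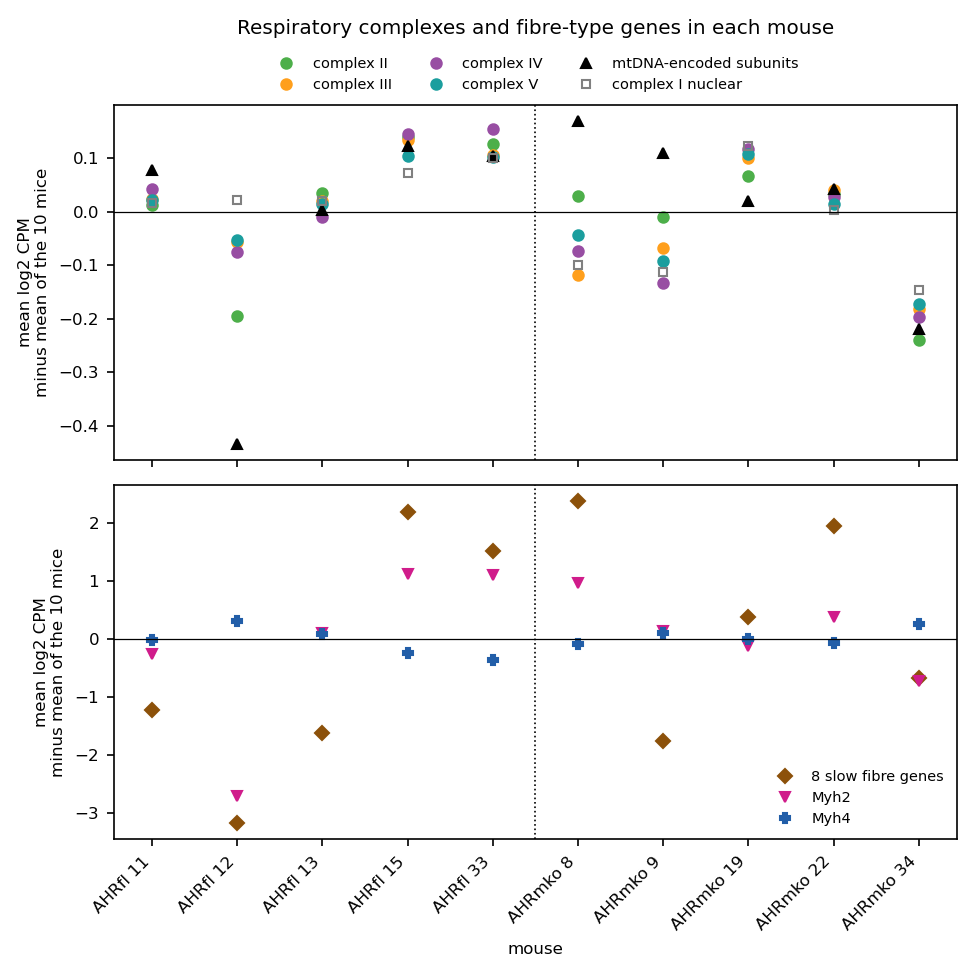
Mean deviation of each complex, of the nuclear complex I genes and of the mitochondrially encoded subunits (upper panel) and of the fibre-type genes (lower panel) in each mouse, in log2 CPM relative to the mean of the 10 mice, with AHRfl left and AHRmko right of the dotted line. The y scales differ: complexes II to V span -0.24 to 0.15, while the slow fibre genes span -3.17 to 2.38.

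Transcript length moved with the differences as well. Of the 7 genes whose principal transcript is longer than 1800 bases, 4 had a log2 fold change above 0 (median 0.02), whereas all 34 shorter genes were below 0 (median -0.10). This division was chosen after the values were seen, and Atp5g1, which was below 0, belongs to either side by the transcript chosen. Within single mice, Spearman's rho between transcript length and a gene's deviation was 0.65 in AHRmko 8 and 0.62 in AHRmko 9 over the 41 genes, and 0.31 and 0.24 over the 14681 genes with a length. In AHRfl 12 it was -0.65 over the 41 genes and -0.16 over all genes. In AHRmko 19, 22 and 34 it was -0.20, -0.01 and -0.35 over the 41 genes and -0.23, -0.03 and 0.0057 over all genes. In AHRfl 11, 13, 15 and 33 it was -0.25, 0.21, 0.17 and -0.25 over the 41 genes. Over all genes these AHRfl mice were at -0.07, -0.06, -0.03 and -0.08. Mice of each genotype thus had values above and below 0 over the 41 genes. Over all genes every AHRfl mouse was below 0, while AHRmko 8, 9 and 34 were above 0 and AHRmko 19 and 22 below. The correlations are across genes, which are not independent and share the library. With trends in GC content and length removed from each library, 34 of the 41 genes were below 0, the median was -0.05 and 1 gene was lower at an unadjusted p under 0.05. Of all genes tested, 51% were below 0 and 2.92% were lower at that limit in the same fit. The part of length in the difference between genotypes was not tested beyond this.

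The other subunits of the respiratory chain give the setting. Of the 36 nuclear genes of complex I, the NADH dehydrogenase, 35 had a log2 fold change below 0 (median -0.09), Ndufa2 (-0.18) and Ndufb5 (-0.17) among those at an unadjusted p under 0.05, and none passed an adjusted p of 0.05. In edgeR 3 of the 36 were lower at the unadjusted limit, against 3.38% of all genes tested. Of 11 further nuclear genes for subunits or associated proteins of complexes II to V, 9 were tested, with 8 values below 0 and a median of -0.09. Among them were Atp5f1 (-0.04), Usmg5 (-0.14) and Ndufa4 (-0.11). The 6 mitochondrially encoded subunits of complexes III to V had 3 below and 3 above 0 (median 0.03). Of these mt-Co1, the catalytic subunit of complex IV, was at 0.07 and mt-Cytb, the cytochrome b of complex III, at -0.03. The counts of mt-Co2, mt-Co3, mt-Atp6 and mt-Atp8 were at 2.42 to 18.0 CPM, far below the 26554 to 40799.6 CPM of mt-Co1, and the reason was not tested. Genes of the mitochondrial genome took 7.34% of assigned reads in AHRfl 12 and 11.5% in AHRmko 8, the ends of the range.

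Of 38 assembly factors of complexes II to V, 36 were tested, and 22 of them were below and 14 above 0 (median -0.06). At an unadjusted edgeR p under 0.05, 3 of the 36 were lower and 1 was higher in AHRmko, against 3.38% and 3.23% of all genes tested. In 1 of the 36 the genotypes did not overlap, with AHRmko lower, against 0.714% of all genes tested. Sdhaf1, which helps to insert iron-sulphur clusters into Sdhb, was at 8.02, 8.45, 7.25, 8.30 and 6.03 CPM in AHRfl mice 11, 12, 13, 15 and 33 and at 4.94, 5.05, 5.39, 5.81 and 6.67 CPM in AHRmko mice 8, 9, 19, 22 and 34. Only AHRfl 33 lay within the range of AHRmko (log2 fold change -0.45 ± 0.12 SE, edgeR p = 0.00264, adjusted p = 0.606, exact permutation p = 0.0159 for Sdhaf1). Cmc2, a factor of complex IV assembly, was at 15.3, 15.9, 15.7, 16.4 and 16.8 CPM in AHRfl and 14.2, 13.8, 14.1, 14.1 and 13.8 CPM in AHRmko, so that every AHRmko mouse lay below every AHRfl mouse (log2 fold change -0.19 ± 0.06 SE, edgeR p = 0.00635, adjusted p = 0.606, exact permutation p = 0.00794). Higd1a was at -0.14 on the log2 scale (edgeR p = 0.0391) and Taco1, a translational activator of mt-Co1, at 0.20 (p = 0.0454), with edgeR adjusted p-values of 0.724 and 0.741 and exact permutation p-values of 0.0159 and 0.0238.

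Of 13 regulators of respiratory genes, 8 were below 0 and 5 above, with a median of -0.04 and a range from -0.39 to 0.57. At an unadjusted edgeR p under 0.05, 1 of the 13 was lower and 1 higher, against 3.38% and 3.23% of all genes tested. Esrra, the orphan nuclear receptor that acts with Ppargc1a on oxidative genes, was at 144 ± 8.40 CPM in AHRfl and 129 ± 3.42 CPM in AHRmko (SD, n = 5 each), and only AHRfl 12 lay within the AHRmko range (log2 fold change -0.15 ± 0.06 SE, edgeR p = 0.0201, adjusted p = 0.665, exact permutation p = 0.0159). Pprc1, a coactivator related to Ppargc1a, was at 0.22 (edgeR p = 0.0284, adjusted p = 0.697, exact permutation p = 0.0476). Ppargc1a itself was at -0.01, Nrf1 at -0.04, Gabpa at 0.11 and Tfam, the packaging factor of mitochondrial DNA, at -0.07, none with p under 0.05.

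Which mice enter the comparison set the size of the differences. Without AHRmko mouse 34 the median of the 41 log2 fold changes was -0.04, 29 were below 0 and 1 was lower at an unadjusted p under 0.05, against 47.5% and 4.19% of all genes tested in that fit. Without AHRmko mouse 19 the median was -0.13 and 10 were lower at that limit (4.05% of all genes), and without AHRfl mouse 12 the median was -0.11 and 6 were lower (3.13% of all genes). Without AHRfl 15 or AHRmko 8 a single gene was lower at that limit, and 2 were without AHRfl 11, AHRfl 33 or AHRmko 9. Of all genes tested, 3.56% were lower without AHRfl 15, 2.81% without AHRmko 8, 2.39% without AHRfl 11, 3.42% without AHRfl 33 and 2.74% without AHRmko 9. With both AHRfl 12 and AHRmko 34 left out, an alternative chosen after seeing the data, the median was -0.08, 36 genes were below 0 (48.2% of all genes) and 2 were lower (3.77% of all genes). No gene of the 41 reached an adjusted p of 0.05 in any of these fits.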

How the data were processed

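Gastrocnemius RNA of 10 mice was sequenced by the authors as polyadenylated, paired-end libraries. Per the submitters' processing notes the reads were trimmed with Trimmomatic (0.36) and mapped to GRCm38 with STAR (2.5.2b), and unique reads over exons were counted per gene by the authors. The deposited values are raw counts, 1 column per mouse, neither normalized nor pooled. The strand setting and the Ensembl release are not given in the sources used here, so antisense overlaps (19.75% of Uqcrc2, 12.8% of Cox5a) cannot be separated. Ensembl identifiers were matched to GENCODE M21 (99.47% of rows).

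Counts were fitted in edgeR (4.0.16, quasi-likelihood, robust, TMM scaling, filterByExpr with a minimum count of 10) on genotype alone, with Benjamini-Hochberg adjustment over 14714 genes at 0.05. Each mouse was 1 replicate. The script was tested on simulated data. CPM used TMM-scaled library sizes, and TPM used the principal transcript. Exact permutation tests were two-sided on log2 CPM over 252 assignments. The named genes were members with an unadjusted p under 0.05 or groups that did not overlap, paired forms, Sdhb, Uqcrc2 and Atp5a1, and genes of the other lists by the same criteria, of which 1 is not reported here. Members and lists were chosen with earlier results of these data known. Alternatives were DESeq2 (1.42.0), limma-voom (3.58.1), other scalings, filters and covariates, and leaving out each mouse.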

Additional observations from a re-analysis of the deposited data

Results flagged for a closer look

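A mouse stood apart from the other 4 of its genotype in 6 of 102 groups examined, where chance alone gives about 1 in 20, or 5.1. The value given for each is its gap to the nearest mouse as a share of the range of the group. AHRmko mouse 34 was low in Uqcrc2 (0.826), in Atp5a1 (0.875) and in the mean of complex II (0.749). AHRfl mouse 12 was low in Cox5a (0.828), AHRfl mouse 33 was high in Atp5e (0.760), and AHRmko mouse 19 was high in Cox7a2 (0.724).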

How the results depend on the processing

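No gene of the 41 reached an adjusted p of 0.05 in any of the 10 fits with another tool, scaling, filter or correction, the 3 fits added after seeing the data, or the 10 fits with a mouse left out. The number lower at an unadjusted p under 0.05, 4 in the fit described above, was 10 with the mean of the slow fibre genes as a covariate (3.59% of all genes in the same fit), 8 with Myh2 as a covariate (4.18%), 1 with GC and length trends removed (2.92%), 2 with a term for libraries that hold Xist counts (3.74%), and 2 without AHRfl mouse 12 and AHRmko mouse 34 (3.77%). It ran from 1 to 10 with single mice left out, where 2.39% to 4.19% of all genes were lower. The Myh2 and Xist covariates and the removal of these 2 mice were chosen after seeing the data. The cause of these shifts was not tested.

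Log2 fold changes near 0 changed sign. With the slow fibre covariate, Uqcrc2 was at -0.0056, Cycs at -0.011 and Atp5b at -0.016. With GC and length trends removed, Cycs was at -4.54e-05, Cox6a1 at 0.0097, Cox8a at 0.041, Atp5c1 at 0.012 and Atp5g2 at 0.040. With the Xist covariate, Cox6a1 was at 0.0071 and Cox8a at 0.017. Atp5g2 was at 0.0020 with the Myh2 covariate and at 0.026 without AHRfl 12 and AHRmko 34.

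With single mice left out, the log2 fold change ran from -0.066 to 0.036 for Cox8a, -0.026 to 0.087 for Uqcrc2, -0.023 to 0.068 for Cycs, -0.023 to 0.067 for Atp5b and -0.041 to 0.033 for Atp5g2. It ran from -0.093 to 0.014 for Cyc1, -0.097 to 0.017 for Cox6a1, -0.14 to 0.0059 for Sdhb, -0.076 to 0.0022 for Uqcrc1, -0.075 to 0.0031 for Atp5a1 and -0.10 to 0.026 for Atp5g1. The difference in log2 ratio ran from -0.087 to 0.029 for Cox6a2 over Cox6a1, from -0.11 to 0.019 for Atp5g1 over Atp5g2, and from -0.15 to -0.088 for Cox7a1 over Cox7a2. The last of these passed an unadjusted exact permutation p of 0.05 without AHRfl mouse 13 (p = 0.0397, difference -0.15) and ranged up to p = 0.183.

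No paired analysis was possible because the animal numbers of AHRfl and AHRmko mice do not repeat between genotypes and no label ties littermates. At 5 mice a genotype the 95% intervals of the 41 genes reached from -0.39 to 0.22 on the log2 scale. The least counted of them, Cox6a1, had 715 to 1104 reads per library.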
